A study of Ovis aries with 36 samples.

Results

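The 9 genes described here belong to the interferon response, the antiviral programme of vertebrate cells: the RNA sensor IFIH1, the transcription factors IRF1, IRF7, STAT2 and IRF9, and the antiviral effectors MX1, MX2, ISG15 and IFI6. They were chosen by symbol from the gene count table of cultured sheep cells labelled as ruminal epithelial cells, the lining cells of the forestomach. Each symbol matched 1 row, so they are 9 of 35223 genes counted, and all 9 were among the 22488 genes that passed the low-count filter. All 9 also passed when the libraries of either medium were filtered alone.

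In the Grain groups the culture medium held volatile fatty acids (VFAs) in the amounts meant for a grain diet: 71.1 mM acetate, 20.1 mM propionate, 16.0 mM butyrate, 5.3 mM isovalerate, 1.7 mM valerate and 1.1 mM isobutyrate, with a stated total of 115.78 mM. The Hay groups received 60.8 mM acetate, 14.6 mM propionate, 9.2 mM butyrate, 3.0 mM isovalerate, 1.2 mM valerate and 1.0 mM isobutyrate, with a stated total of 89.79 mM. Every group, in both media, had first spent 2 h without serum and with dexamethasone at 100 nM, a glucocorticoid that synchronizes cellular clocks and also acts on immune genes. Both media had a pH of 7.2, and acetate, propionate and butyrate were added as sodium salts, so sodium differed as well; cells without VFAs were not analysed here. There were 3 libraries of each medium at 6 harvests 4 h apart, labelled T0 to T20 (24 to 44 h), or 36 libraries in 12 groups. The event from which those hours are counted is not clear in the labels, and sheep number, sex and age are not given there. Nor do the labels say if the 3 libraries of a group were separate cultures, so the p-values measure the spread between these libraries, which may be technical.

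Interferons are secreted proteins that cells release when sensors such as IFIH1 (MDA5) bind viral RNA and activate transcription factors of the IRF family. Type I and type III interferons bind their receptors and, through the kinases JAK1 and TYK2, lead to a transcription factor complex that contains STAT2 and IRF9 and switches on interferon-stimulated genes; type II interferon acts through another receptor and induces IRF1. MX1, MX2, ISG15 and IFI6 are interferon-stimulated genes, and in ruminants MX1 and ISG15 are also known as readouts of the interferon tau signal of early pregnancy.

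Each library held 52.4 to 68.1 M counts. Levels are given as CPM, counts divided by the TMM-scaled library size, as mean ± SD, and differences as Grain minus Hay on the log2 scale with their standard error (SE) from edgeR. CPM is not corrected for gene length, so levels are compared between groups and not between genes. Of 19 epithelial markers, listed for the labelled cell type, 18 passed the low-count filter, and KRT4 had no count in Grain. Summed over the list, epithelial markers ranged from 546.1 to 1086 CPM in Grain and from 749.3 to 874.8 CPM in Hay. Singly, 14 of the 18 tested were lower in Grain, 3 were higher and 1 did not pass, with a median difference of -0.42. The 18 mesenchymal markers, among them FN1 and VIM, summed to 77250 to 131400 CPM in Grain and to 68940 to 94320 CPM in Hay. Of these markers, 11 were higher in Grain and 7 lower. Their sums lay far above the epithelial sums in both media, though CPM is not corrected for gene length. The identity of the cells was not tested. All 36 pairs of replicate libraries differed by more than sampling noise.

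Over the mean of the 6 time points, 6 of the 9 genes were lower in Grain than in Hay, 2 were higher and 1, IFI6, did not pass the test. MX1 was 2.68-fold, MX2 2.51-fold and IFIH1 2.49-fold higher in Hay, IRF9 2.2-fold, IRF1 1.76-fold and ISG15 1.66-fold, while IRF7 was 1.52-fold and STAT2 1.13-fold higher in Grain. The media differed very widely: 81.8% of all tested genes passed this edgeR quasi-likelihood test (Benjamini-Hochberg over all of them, threshold 0.05), with 43.9% lower and 37.9% higher in Grain. A count of 8 of 9 is therefore near the background. A fall in Grain of 2-fold or more was found for 16% of all tested genes, and for 4 of the 9. The median difference was -0.82 over the 9 genes and -0.07 over all tested genes. At single times, the 3 Grain and 3 Hay libraries did not overlap for 67.8% of all tested genes at T0, 64.4% at T4, 64.1% at T8, 68% at T12, 65.9% at T16 and 64.5% at T20.

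The background differed with the level of the genes. Of those with a mean under 5 CPM, 50.1% were lower in Grain and 20.8% higher, with a median of -0.41, whereas of the genes at 5 CPM or more 38.1% were lower and 53.7% higher, with a median of 0.10. IRF7, IRF9, MX2 and ISG15 lay under 5 CPM, with a median of -0.94, and IFIH1, IRF1, STAT2, MX1 and IFI6 at or above it, with a median of -0.82. Leukocytes also express these genes. The 16 leukocyte markers in the table summed to 6.558 to 9.871 CPM in Grain and 9.043 to 11.86 CPM in Hay; of the 13 tested, 6 were lower in Grain, 3 were higher and 4 did not pass, and MS4A1 had no count in Grain. The part of the leukocyte, epithelial and mesenchymal markers in the results was not tested. In bulk RNA, fewer cells of a type and less RNA per cell cannot be told apart.

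**Figure D1:**
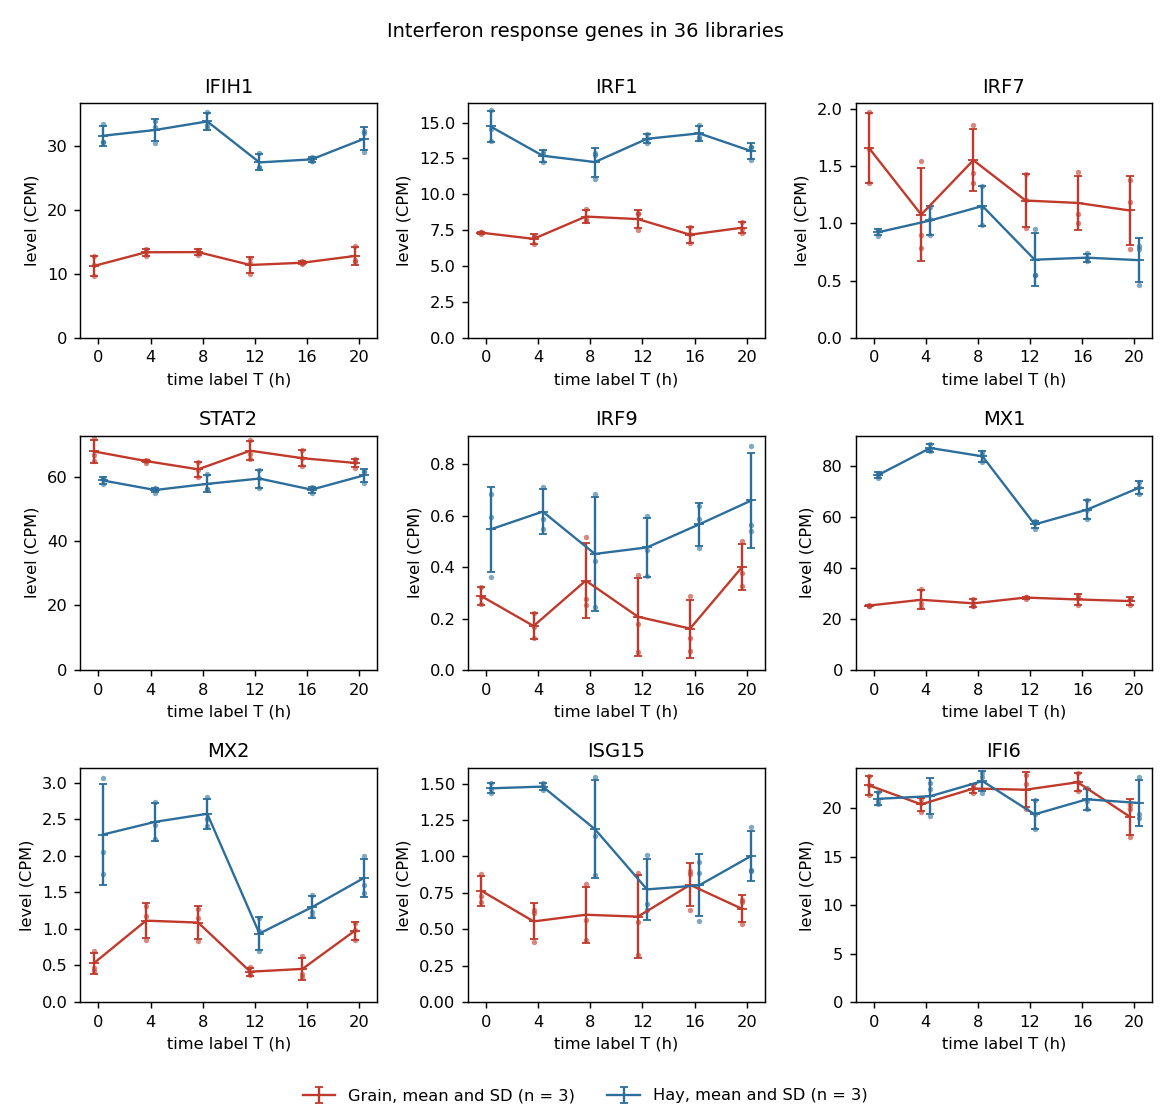
CPM of the 9 genes (vertical axes, from 0) at each time label (horizontal axes, h) in Grain (red) and Hay (blue); dots are single libraries, lines join group means and bars are SD (n = 3). The 18 Grain libraries lie below the 18 Hay libraries for IFIH1, IRF1 and MX1, and the MX1 course bends in Hay and stays level in Grain.

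IFIH1, a cytosolic helicase that detects long double-stranded RNA, was counted at 9.645 to 14.32 CPM in the 18 Grain libraries, with a median of 12.33 CPM. In the 18 Hay libraries it ranged from 26.6 to 35.33 CPM, with a median of 30.63 CPM. The ranges were far apart, a separation that 11.9% of all tested genes showed in this direction. The means were 12.31 ± 1.265 CPM in Grain and 30.69 ± 2.685 CPM in Hay (SD, n = 18 each), a difference of -1.32 (SE 0.031, edgeR adjusted p = 1.71e-30). At single times the difference lay between -1.49 at T0 and -1.25 at T16, and its dependence on time did not pass the test (edgeR adjusted p = 0.393). IFIH1 overlaps LOC132659314 in the RefSeq annotation, and as the libraries carry no strand, reads of the overlap cannot be told apart; that gene was counted at 0.271 CPM in Grain and 0.810 CPM in Hay.

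Among the IRF genes, IRF1 and IRF7 moved in opposite directions. IRF1, an early responder that type II interferon induces, was lower in Grain. It ranged from 6.525 to 8.955 CPM in Grain, with a median of 7.452 CPM, and from 11.08 to 15.87 CPM in Hay, with a median of 13.45 CPM, so that no Grain library reached a Hay library. The mean difference was -0.82 (SE 0.031, edgeR adjusted p = 8.27e-24), from 7.64 ± 0.691 CPM in Grain against 13.47 ± 1.081 CPM in Hay. IRF1 overlaps RAD50, which stood at 48.41 ± 5.66 CPM in Grain and 51.42 ± 4.994 CPM in Hay (log2 difference -0.09). Without strand, reads of the overlap cannot be told apart, so the level and the fold of IRF1 are uncertain to that extent.

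The IRF1 difference varied with time (edgeR adjusted p = 0.0042, a test that 32.6% of all genes passed). At T0 IRF1 stood at 7.368, 7.244 and 7.369 CPM in Grain and at 14.56, 13.75 and 15.87 CPM in Hay, a difference of -1.01 (SE 0.077). At T8 it stood at 8.287, 8.113 and 8.955 CPM in Grain and at 11.08, 12.75 and 12.91 CPM in Hay, a difference of -0.54 (SE 0.075). Grain was at its highest group mean and Hay at its lowest at that time, and the libraries still did not overlap. By T16 the difference was back at -0.99 (SE 0.077).

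IRF7, the factor that amplifies type I interferon transcription, was higher in Grain, at 0.777 to 1.971 CPM with a median of 1.352 CPM, against 0.459 to 1.329 CPM with a median of 0.893 CPM in Hay. The ranges overlapped, and each value rests on 43 to 111 counts in Grain and 26 to 97 counts in Hay. The mean difference was 0.60 (SE 0.106, edgeR adjusted p = 3.61e-06). At T0 the Grain libraries (1.649, 1.971 and 1.352 CPM) lay above those of Hay (0.890, 0.937 and 0.938 CPM), and the difference was 0.85 (SE 0.255). At T4 the Grain libraries (0.786, 0.899 and 1.542 CPM) surrounded those of Hay (0.895, 1.141 and 1.039 CPM), and the difference was 0.08 with a 95% interval from -0.44 to 0.60. IRF7 passed the test at T0, T12, T16 and T20 and not at T4 or T8, but the dependence of the difference on time did not pass (edgeR adjusted p = 0.427). The T16 call was lost without Grain T16 replicate 3 (0.0936), and the T20 call without Grain T20 replicate 1 or 3 or Hay T20 replicate 2 (up to 0.142) and with the libraries of T20 fitted alone (0.0576). No annotated gene overlaps IRF7.

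STAT2 and IRF9 are subunits of the complex that carries the type I interferon signal to the nucleus. STAT2 was slightly higher in Grain, at 59.98 to 71.89 CPM with a median of 65.05 CPM, against 54.91 to 62.03 CPM with a median of 57.15 CPM in Hay. Its mean difference was 0.17 (SE 0.017, edgeR adjusted p = 7.6e-12), and the Grain libraries lay above the Hay libraries at 5 of 6 times. They overlapped at T8, with 59.98, 62.14 and 64.64 CPM in Grain and 56.24, 56.14 and 60.8 CPM in Hay. There the difference of 0.11 passed with TMM scaling and was 0.06 with DESeq2 size factors, which did not pass. The T8 call was also lost when any of 4 libraries was left out (edgeR adjusted p up to 0.14). At T20 the libraries were apart, and the difference of 0.09 (SE 0.041) did not pass (edgeR adjusted p = 0.061). It passed when any of 4 libraries was left out (edgeR adjusted p down to 0.0447). APOF, IL23A and LOC114114296 overlap STAT2, and the only tested one, IL23A, was near 0.1 CPM in both media.

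IRF9 was lower in Grain, with 0.0711 to 0.517 CPM (4 to 34 counts) and a median of 0.265 CPM, against 0.246 to 0.871 CPM (16 to 56 counts) and a median of 0.576 CPM in Hay. The mean difference was -1.14 (SE 0.186, edgeR adjusted p = 9.18e-07), with the widest error of the 9 genes. It passed at T4, T12 and T16. The T12 difference of -1.19 ranged from -1.90 to -0.77 with single libraries left out, and its call was lost without Grain T12 replicate 1 or 3 or Hay T12 replicate 3 (up to 0.166) and with the libraries of T12 fitted alone (0.0836). The 95% interval at T8 ran from -1.26 to 0.51. At T16, for example, the 3 Grain libraries held 16, 4 and 7 counts and the 3 Hay libraries 28, 36 and 39. IRF9 overlaps RNF31, a ubiquitin ligase subunit that stood at 27.19 ± 3.222 CPM in Grain and 11.65 ± 0.939 CPM in Hay (log2 difference 1.21). Without strand, reads of the 2 genes cannot be told apart, so the IRF9 value is uncertain although the genes moved in opposite directions.

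MX1, a dynamin-like GTPase that blocks viral replication in the cytoplasm, was the most different of the 9 genes. It ranged from 24.69 to 31.74 CPM in Grain, with a median of 27.04 CPM, and from 55.49 to 88.86 CPM in Hay, with a median of 74.78 CPM. The highest Grain library thus stayed well under the lowest Hay library. The means of 27.04 ± 1.95 CPM and 73.23 ± 11.18 CPM (SD, n = 18 each) gave a difference of -1.42 (SE 0.024, edgeR adjusted p = 6.1e-35), or 2.68-fold. The wide SD in Hay came with a course over time, as the SD within groups of 3 was 1.011 to 3.779 CPM.

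In Hay, MX1 was at 75.55, 77.57 and 76.64 CPM at T0, at 86.78, 88.86 and 85.97 CPM at T4 and at 81.66, 85.77 and 84.37 CPM at T8. It then stood at 55.49, 57.65 and 58.37 CPM at T12, at 66.74, 62.91 and 59.18 CPM at T16 and at 68.95, 74 and 71.72 CPM at T20. Every library of T0 to T8 was above every library of T12 to T20. The highest group mean was 1.53 times the lowest in Hay and 1.12 times in Grain, where group means lay between 25.31 CPM at T0 and 28.44 CPM at T12. Differences among times passed in Hay (edgeR adjusted p = 3.28e-11) and not in Grain (edgeR adjusted p = 0.174; it passed when Grain T4 replicate 1, Grain T8 replicate 1 or Grain T4 replicate 2 was left out, the lowest value being 0.0227).

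The MX1 difference therefore changed with time (edgeR adjusted p = 1.58e-08). It was -1.60 (SE 0.060) at T0, -1.66 (SE 0.059) at T4 and -1.68 (SE 0.059) at T8. It was smaller at T12, at -1.01 (SE 0.059), and then widened to -1.18 (SE 0.059) at T16 and -1.40 (SE 0.059) at T20. Every one of these passed the test at its own time, and the 3 Grain and 3 Hay libraries were apart at all 6.

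MX2, the nuclear-pore-associated relative of MX1 and its neighbour in the RefSeq gene table, was lower in Grain by 1.33 (SE 0.098, edgeR adjusted p = 5.36e-15). Its counts were few, at 19 to 86 in Grain and 42 to 206 in Hay. Grain libraries ranged from 0.342 to 1.313 CPM with a median of 0.767 CPM and Hay libraries from 0.699 to 3.067 CPM with a median of 1.872 CPM. These ranges overlapped because MX2 varied with time in both media, but at each time the Grain libraries were below the Hay libraries, which held in 1 direction for 39.3% of all tested genes.

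MX2 was lower at T12 than at T8 in every library of both media. In Hay it stood at 2.809, 2.408 and 2.505 CPM at T8 and at 0.699, 0.967 and 1.146 CPM at T12. In Grain it stood at 1.274, 0.836 and 1.152 CPM at T8 and at 0.396, 0.476 and 0.373 CPM at T12. The highest group mean was 2.75 times the lowest in Hay and 2.68 times in Grain, the widest ranges over time among the 9 genes. The media differed most at T0, at -2.10 (SE 0.244), with 0.699, 0.462 and 0.431 CPM in Grain and 1.748, 2.056 and 3.067 CPM in Hay. They differed least at T20, at -0.80 (SE 0.230). The dependence of the difference on time was close to the threshold (edgeR adjusted p = 0.0411) and did not pass without Hay T0 replicate 3 or without any of 9 other libraries left out singly (up to 0.166).

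ISG15, a ubiquitin-like protein that is attached to other proteins during the response, was lower in Grain. At T4 it stood at 0.615, 0.635 and 0.412 CPM in Grain and at 1.454, 1.481 and 1.505 CPM in Hay, a difference of -1.42 (SE 0.285). At T16 it stood at 0.881, 0.899 and 0.635 CPM in Grain and at 0.559, 0.960 and 0.886 CPM in Hay, a difference of 0.00 with a 95% interval from -0.58 to 0.59. It passed at T0, T4 and T8 and not at T12, T16 or T20 (edgeR adjusted p = 0.245, 0.993 and 0.052). At T20 the Grain libraries (0.699, 0.687 and 0.534 CPM) nevertheless lay below those of Hay (0.910, 1.201 and 0.903 CPM), and the difference of -0.65 (SE 0.288) passed with DESeq2 (adjusted p = 0.0427) and DESeq2 size factors (0.0409) and when any of 9 libraries was left out.

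Over all times, ISG15 ranged from 0.324 to 0.899 CPM in Grain (18 to 50 counts), with a median of 0.661 CPM, and from 0.559 to 1.548 CPM in Hay (33 to 113 counts), with a median of 1.077 CPM. The mean difference was -0.73 (SE 0.117, edgeR adjusted p = 6.31e-07). The dependence of the ISG15 difference on time did not pass (edgeR adjusted p = 0.0649), and it passed with DESeq2 (adjusted p = 0.04). Differences among times passed in Hay (edgeR adjusted p = 0.0111) and not in Grain (0.464).

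IFI6, a small membrane protein that restricts flaviviruses, was close in level in the 2 media. It ranged from 17.02 to 23.61 CPM in Grain, with a median of 21.66 CPM, and from 17.88 to 23.61 CPM in Hay, with a median of 20.79 CPM. The ranges overlapped at every time. The mean difference was 0.03 (SE 0.030, edgeR adjusted p = 0.379), and its 95% interval ran from -0.03 to 0.09, so a change of the size seen in MX1 lies outside it. IFI6 passed at T12 alone, at 0.18 (SE 0.075, edgeR adjusted p = 0.0372), with 19.89, 22.46 and 23.39 CPM in Grain and 19.38, 17.88 and 20.86 CPM in Hay. That call was lost with DESeq2, with DESeq2 size factors, with the libraries of T12 fitted alone, and when Grain T12 replicate 2 or 3 or Hay T12 replicate 1 or 2 was left out.

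**Figure D2:**
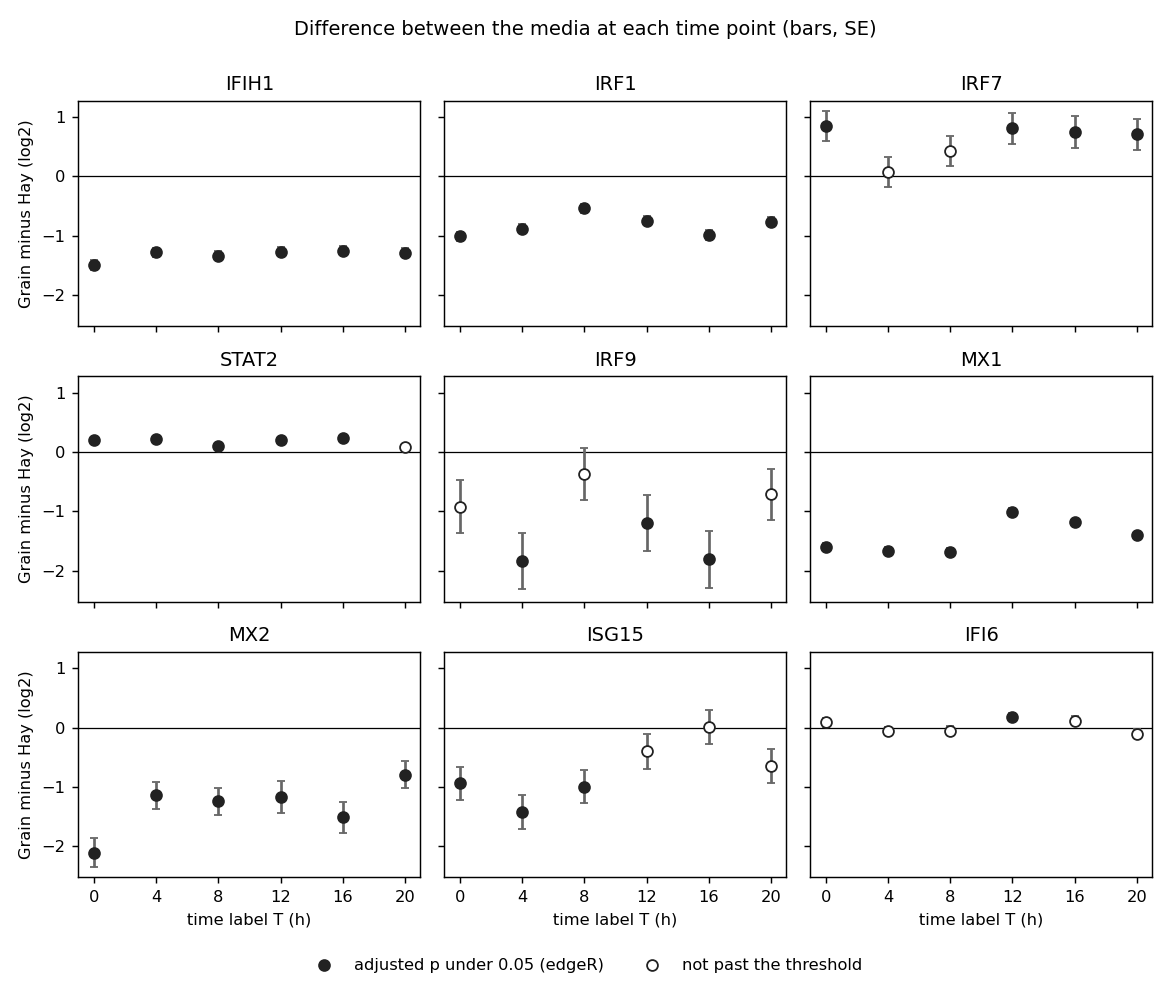
Grain minus Hay difference (vertical axes, log2) of each gene at each time label (horizontal axes, h), with bars of 1 SE from edgeR; filled circles passed an adjusted p of 0.05 and open circles did not. IFIH1, IRF1, MX1 and MX2 are filled below 0 at all 6 times, ISG15 reaches 0 at T16, and IFI6 stays near 0.

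Counted by time, the genes that passed were 7 of 9 at T0, 7 at T4, 6 at T8, 8 at T12, 7 at T16 and 5 at T20. Of all tested genes, 62.8%, 57.8%, 56.8%, 64.3%, 62.7% and 58.9% passed at these times. IFIH1, IRF1, MX1 and MX2 were lower in Grain at all 6 times. STAT2 and IRF7 were higher at each time at which they passed. Any difference among the times of a medium passed for 4 of the 9 in Grain (IFIH1, IRF1, MX2 and IFI6), against 51.5% of all tested genes. IFI6 (edgeR adjusted p = 0.037) lost that call when any of 5 Grain libraries was left out (up to 0.205) and IFIH1 with the Grain libraries fitted alone (0.0646). STAT2 (edgeR adjusted p = 0.0591) gained it under 4 alternatives, among them DESeq2 (0.0106). In Hay it passed for 6 of 9 (IFIH1, IRF1, IRF7, MX1, MX2 and ISG15), against 35.2%; IRF7, at an edgeR adjusted p of 0.0481, lost the call when any of 21 libraries was left out (up to 0.144), and IRF1 (0.0203) without Hay T8 replicate 1 or Hay T0 replicate 3 (up to 0.073).

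The title of the series concerns circadian expression, so each course was also fitted with a cosine of fixed 24 h period. The 6 harvests span 20 h, less than a cycle, so a passing fit describes a course with a high and a low phase and shows no recurrence. In Hay, 5 of the 9 genes passed, against 20.7% of all tested genes; in Grain, 1 of 9 passed, against 31.8%. The 5 in Hay were MX1, MX2, ISG15, IFIH1 and IRF7, and their fitted peaks lay between 2.56 and 5.03 h after T0. With a linear trend in the model, ISG15 (edgeR adjusted p = 0.106) and IRF7 (0.317) lost this call in Hay and IRF1 gained it (0.0201). In Grain, IFIH1 (edgeR adjusted p = 0.004) and IFI6 (0.0409) gained the call with that trend. The 5 genes that passed in Hay without the trend all had their largest step in Hay group means between T8 and T12. So did 53.5% of all tested genes, and the part of this step in the fitted peaks was not tested.

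MX1 in Hay had an amplitude of 0.27 (log2, SE 0.034), with a fitted peak at 3.26 h (SE 0.491 h; edgeR adjusted p = 3.28e-06), and in Grain an amplitude of 0.05 (SE 0.036, adjusted p = 0.521). ISG15 in Hay had an amplitude of 0.53 (SE 0.110) and a fitted peak at 2.56 h (edgeR adjusted p = 0.00196), against 0.20 (SE 0.118, adjusted p = 0.413) in Grain. For these genes the cosine itself differed between the media, with edgeR adjusted p = 0.000242 for MX1 and 0.0231 for ISG15; 11.3% of all tested genes passed that test. ISG15 lost the call without Grain T16 replicate 1 (adjusted p = 0.0507) and with a linear trend in the model (0.0897), whereas MX1 kept it in every alternative run.

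MX2 passed in both media, with an amplitude of 0.64 (SE 0.143) and a fitted peak at 3.08 h in Hay (edgeR adjusted p = 0.00503) and 0.52 (SE 0.159) at 3.44 h in Grain (edgeR adjusted p = 0.0422). The Grain call was lost when any of 10 Grain libraries was left out (up to 0.117), but the difference of the MX2 cosines between the media did not pass (edgeR adjusted p = 0.934). IFIH1 and IRF7 were near the threshold in Hay (edgeR adjusted p = 0.0413 and 0.0375), at amplitudes of 0.13 (SE 0.039) and 0.40 (SE 0.117), and lost their calls when any of 12 Hay libraries (IFIH1, up to 0.0809) or any of 7 (IRF7, up to 0.0796) was left out. Without a trend in the model, STAT2, IRF9 and IFI6 passed in neither medium. Nor did IRF1, with amplitudes of 0.10 (SE 0.040) in Grain and 0.08 (SE 0.039) in Hay. The difference of the IRF1 cosines between the media did not pass (edgeR adjusted p = 0.173), but it passed with a linear trend (0.0169).

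The wider pathway was read from lists of 139 genes in 8 groups, from ligands to inhibitors. The table held 108 of them and 100 were tested: 47 were higher in Grain, 39 were lower and 14 did not pass, against 37.9% higher and 43.9% lower among all tested genes. Without the 9, 45 were higher, 33 were lower and 13 did not pass. The median difference over the 100 was 0.02. The low MX1, MX2, IFIH1 and IRF1 of Grain thus stood beside 47 pathway genes that were higher.

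**Figure D3:**
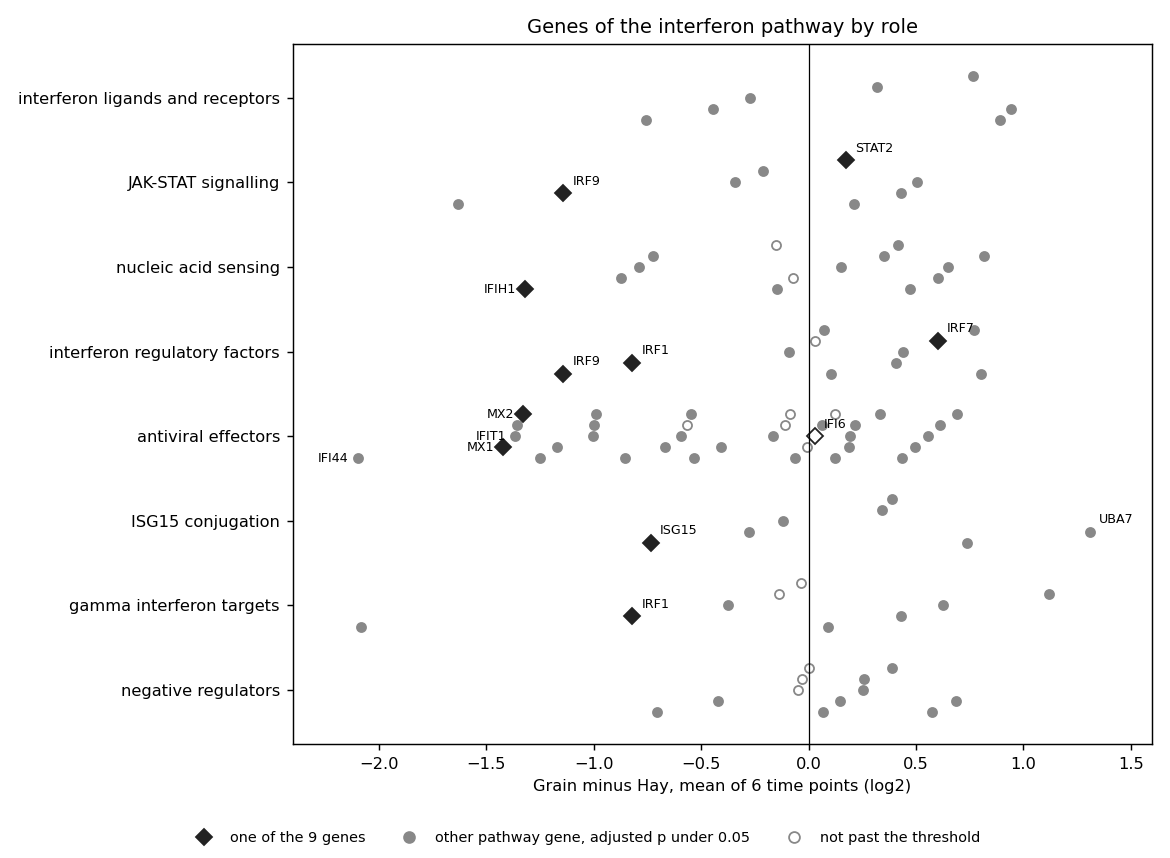
Grain minus Hay difference, mean of 6 time points (horizontal axis, log2), of each tested gene of the 8 pathway lists (rows). Large points are the 9 genes, dark with an adjusted p under 0.05 and open for IFI6. Small filled points are other genes with an adjusted p under 0.05, and open points are genes that did not pass. Each list has genes on both sides of 0, from UBA7 at 1.31 to IFI44 at -2.10; the vertical shift within a row only separates the points.

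Of the ligands and receptors, 7 were tested, 4 higher and 3 lower in Grain. Both chains of the type II receptor were higher, IFNGR2 by 0.94 (SE 0.015) and IFNGR1 by 0.77 (SE 0.020), and so were both chains of the type III receptor, IFNLR1 by 0.89 (SE 0.050) and IL10RB by 0.32 (SE 0.028). Both chains of the type I receptor were lower, IFNAR1 by -0.27 (SE 0.015) and IFNAR2 by -0.45 (SE 0.033). All 6 receptor chains passed the test, which 81.8% of all tested genes passed, and their directions parted by receptor type. IFNE, a type I interferon of epithelia, was at 21.94 ± 1.382 CPM in Grain and 37.12 ± 3.208 CPM in Hay (log2 difference -0.76); IFNE, IFNAR1 and IFNAR2 each overlap an uncharacterized locus.

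IFNG and IFNK, the other interferon genes read from the table, had few counts. IFNG had no count in the 18 Grain libraries and 5 counts in the 18 Hay libraries, and IFNK had 3 and 7. IFNB1, IFNB2, IFNA1, IFNL3 and IFNT were not analysed here.

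**Figure D4:**
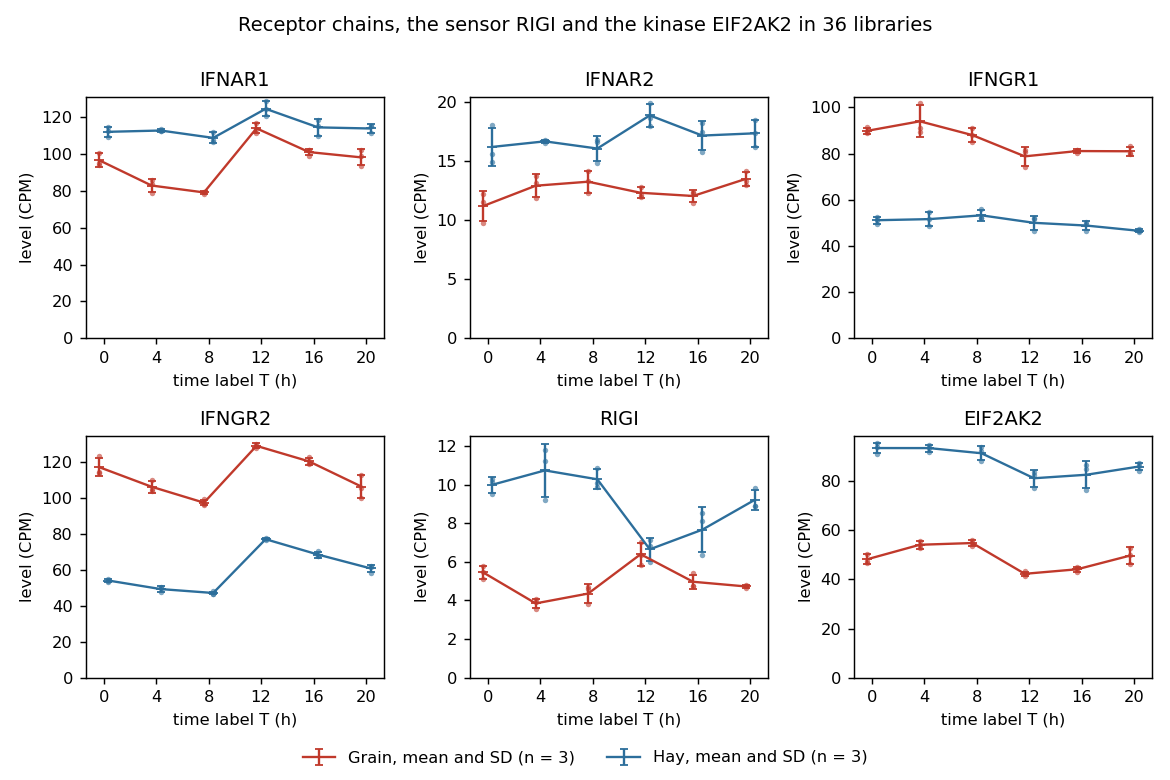
CPM (vertical axes, from 0) of both chains of the type I receptor (IFNAR1, IFNAR2) and of the type II receptor (IFNGR1, IFNGR2), of the RNA sensor RIGI and of the kinase EIF2AK2 at each time label (horizontal axes, h) in Grain (red) and Hay (blue), with dots for single libraries, lines for means and bars for SD (n = 3). EIF2AK2 lies between 41.49 and 55.87 CPM in Grain and between 76.47 and 95.47 CPM in Hay, and RIGI overlaps between the media at T12.

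Of the 8 JAK-STAT genes, 4 were higher and 4 lower in Grain. The receptor kinases were all higher, JAK1 by 0.43 (SE 0.011), JAK2 by 0.50 (SE 0.015) and TYK2 by 0.21 (SE 0.021). STAT3, which signals for the IL-6 family, was lower by -0.34 (SE 0.012), as was KPNA1, a nuclear import adaptor, by -0.21 (SE 0.012). JAK1 and KPNA1 overlap other annotated genes.

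Of the 14 sensing genes, 7 were higher, 5 lower and 2 did not pass. RIGI, the sensor of short viral RNA and a relative of IFIH1, was lower by -0.87 (SE 0.044), at 4.952 ± 0.897 CPM in Grain and 9.084 ± 1.67 CPM in Hay. Its difference changed with time (edgeR adjusted p = 2.27e-08): at T12 it stood at 5.819, 7.005 and 6.344 CPM in Grain and at 7.12, 6.83 and 5.978 CPM in Hay. Also higher in Grain were TRIM25 (the RIGI-activating ligase) by 0.65, the adaptor TICAM1 by 0.82 and the kinase TBK1 by 0.42.

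Of the 11 genes of the IRF list, 7 were higher, 3 lower and 1 did not pass. Besides IRF7, IRF8 was higher by 0.80 (SE 0.047), IRF5 by 0.77 (SE 0.047), IRF4 by 0.44 (SE 0.083) and IRF3 by 0.10 (SE 0.026). The IRF3 difference depended on time (edgeR adjusted p = 0.0124). Its Grain libraries lay above the Hay libraries at 2 times and below them at 1. IRF2, which competes with IRF1 for its sites, was lower by -0.09 (SE 0.021). IRF2BP1, a corepressor of IRF2, was higher by 0.41, and its relative IRF2BP2 did not pass, at 0.03. IRF1 and IRF9 were thus the only IRF genes with a fall of more than 0.1, in a list where most were higher.

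Of the 35 antiviral effectors tested, 18 were lower, 11 higher and 6 did not pass, with a median of -0.16. EIF2AK2, the kinase PKR that halts translation, was lower by -0.85 (SE 0.018), at 48.88 ± 5.035 CPM in Grain and 88.06 ± 5.8 CPM in Hay. DTX3L, a ubiquitin ligase, was lower by -0.99 (SE 0.048) and IFIT5, an RNA-binding protein, by -0.67 (SE 0.028). SAMHD1, the dNTP hydrolase that limits retroviruses, was higher by 0.50 (SE 0.013). IFIT1 (-1.37, SE 0.062), IFIT3 (-1.25, SE 0.088) and IFI44 (-2.10, SE 0.321) were also lower, all at under 5 CPM, whereas IFIT2 did not pass (-0.09, SE 0.044) and RSAD2, or viperin, was higher (0.56, SE 0.051); these 5 were chosen after their values were seen. EIF2AK2, SAMHD1, RSAD2 and IFIT1 overlap other annotated genes, and the OAS genes were not analysed here.

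In the ISG15 conjugation list, ISG15 was lower, and of the 6 other genes 4 were higher and 2 lower. The activating enzyme UBA7 stood at 0.836 ± 0.183 CPM in Grain and 0.334 ± 0.117 CPM in Hay, a difference of 1.31 (SE 0.148), and the conjugating enzyme UBE2L6 was higher by 0.74 (SE 0.064). The ligase HERC6 was higher by 0.34 and the protease USP18, which removes ISG15 and restrains the type I receptor, by 0.39, whereas the ligases HERC5 and ARIH1 were lower by -0.28 and -0.12.

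Of 9 type II interferon targets, 4 were higher, 3 lower and 2 did not pass. The immunoproteasome subunit PSMB8 was higher by 0.63 (SE 0.057) and the tRNA synthetase WARS1 by 0.09 (SE 0.015). The peptide transporter TAP1 did not pass, at -0.04 (SE 0.039). Of the other immunoproteasome subunits, PSMB10 was higher by 1.12 (SE 0.093) and PSMB9 lower by -0.37 (SE 0.098). Besides IRF1 and PSMB9, CXCL9 was lower by -2.08 (SE 0.383). PSMB9, PSMB10 and CXCL9 lay under 5 CPM and were chosen after their values were seen. CXCL10 had only 29 counts in Grain and 38 in Hay. Of 12 negative regulators, 7 were higher, 2 lower and 3 did not pass. The phosphatase PTPN1 was higher by 0.26 and the STAT inhibitor PIAS1 by 0.25, and SOCS3 was lower by -0.42 (SE 0.042). The SOCS3 difference depended on time (edgeR adjusted p = 1.95e-05, a test that 32.6% of all tested genes passed). Its Grain libraries lay below the Hay libraries at 5 times and above them at 1. SOCS3 overlaps other annotated loci.

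Dependence of the difference on time passed for 37 of the 91 pathway genes outside the 9, against 32.6% of all tested genes. Genes whose levels followed those of the 9 over the 36 libraries, once the mean of each medium was subtracted, are given as a description; the libraries share time points. The genes closest to MX1 were SERPINB5 (Pearson r = 0.900), LONRF3 (0.862) and KLHL24 (0.856), and those closest to MX2 were CETN3 (0.887), IMPACT (0.870) and HHLA2 (0.870). IFIH1 was closest to PLD3 (0.799), CADM3 (0.788) and NEFL (0.784). The highest r was lower for IRF9 (0.708, with GREB1L), STAT2 (0.682, with RAB40C), IRF7 (0.681, with PMAIP1), IFI6 (0.640, with POLR2H) and ISG15 (0.634, with TFAM). Among the 9 themselves, r was 0.628 for IFIH1 with MX2, 0.507 for IFIH1 with MX1 and 0.471 for MX1 with MX2, and -0.404 for STAT2 with MX2. None of the 139 list genes was among the 3 closest to any of the 9. The candidates left out the 9 themselves and genes with a mean under 5 CPM in both media. Such list genes could not appear, so no conclusion is drawn from their absence.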

How the data were processed

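RNA was measured in 36 libraries, prepared with an unstranded TruSeq RNA v2 kit per the labels' protocols. The submitters' processing notes name StringTie 2.1.5, SAMtools 1.20 and HISAT2 2.2.1. How reads were counted, and on which assembly, is not given in the sources used here. Read counts per gene, whole and not normalized, were deposited by the authors for 35223 genes, 2778 of them without a symbol. Overlapping and neighbouring genes were read from RefSeq (assembly ARS-UI_Ramb_v3.0).

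The genes and lists were chosen with earlier results of these data known. Genes were filtered with filterByExpr (minimum count 10, minimum total count 15, 12 groups; 22488 kept), scaled by TMM and tested with edgeR 4.0.16 quasi-likelihood tests (limma 3.58.1, R 4.3.3; two-sided, Benjamini-Hochberg, threshold 0.05). A model with 12 group means gave the mean difference, each time point, its dependence on time (5 contrasts) and differences among times; a second had a 24 h cosine and sine per medium. Procedures were tested on simulated data. All 9 genes are named, and from each list up to 4 genes at 5 CPM or more with the smallest p, plus every receptor chain and all genes of the JAK-STAT, ISG15 conjugation and IRF lists; some genes the rule names are not reported here. For likeness, the 3 genes with the highest r are taken from 10564 other genes with a symbol and a mean of 5 CPM or more in a medium. Alternatives were DESeq2 1.42.0, its size factors, no filter, replicate blocks, a time point or medium alone, a linear trend and leaving out each library.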

Additional observations from a re-analysis of the deposited data

Results flagged for a closer look

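For 3 of the 9 genes the difference between Grain and Hay itself differed among the 6 time points by the edgeR F test, near the 32.6% of all tested genes. These were MX1 (adjusted p = 1.58e-08), whose difference was -1.68 at T8 and -1.01 at T12 on the log2 scale, IRF1 (adjusted p = 0.0042), at -1.01 at T0 and -0.54 at T8, and MX2 (adjusted p = 0.0411), at -2.10 at T0 and -0.80 at T20. The MX2 call was lost without the low-count filter (edgeR adjusted p = 0.0587), with the replicate block (0.0534) and when any of 10 libraries was left out. For MX1 (edgeR adjusted p = 0.000242) and ISG15 (0.0231) the 24 h cosine differed between the media, as for 11.3% of all tested genes. Both had the larger amplitude in Hay. ISG15 lost the call with a linear trend (edgeR adjusted p = 0.0897) and without Grain T16 replicate 1 (0.0507). Among pathway genes outside the 9, the difference depended on time for 37 of 91, against 32.6% of all tested genes.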

How the results depend on the processing

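The 8 calls of the mean comparison held under every alternative and with any library left out. MX1 kept its dependence on time, its 24 h component in Hay and the difference of that component between the media throughout. The number of genes with a 24 h component in Grain was 1 and became 0 without the low-count filter, with the replicate block, with the replicate block within each medium and with the libraries of the medium alone, and 3 with a linear trend; in Hay it was 5 and became 3 with the replicate block within each medium, and 4 without the filter (IRF7 lost), with the replicate block (IFIH1 lost) and with a linear trend (ISG15 and IRF7 lost, IRF1 gained). With any library left out, the count was 8 for the mean, 7 to 8 at T0, 7 at T4, 5 to 6 at T8, 7 to 8 at T12, 6 to 7 at T16 and 4 to 7 at T20, 2 to 4 for dependence on time, 3 to 6 and 4 to 7 for differences among times in Grain and Hay, 0 to 1 and 3 to 5 for the 24 h component in Grain and Hay, and 1 to 2 for its difference. Of the pathway genes, 47 to 48 were then higher and 38 to 40 lower. The cause of these changes was not tested.

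Libraries with the same number did not deviate together (r from -0.039 to 0.028 in 18 pairs of Grain and Hay). Noise of each library can also bring r near 0, so these values do not settle if the numbers pair the libraries. The labels do not say if they do. With the replicate block the mean comparison still gave 8 calls, dependence on time gave 2 in place of 3 (MX2 adjusted p = 0.0534) and the pathway split was 47 higher and 39 lower. Counted over all alternatives other than leaving out libraries, 604 results for single genes kept their side of the threshold, 11 gained a call and 24 lost it. MX2, ISG15, IRF7 and IRF9 rest on 4 to 206 counts per library, which limits single time points.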

Other observations

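Between consecutive time points, the largest step in group means fell between T8 and T12 for 58.3% of all tested genes in Grain and for 53.5% in Hay (log2 of CPM plus 0.1). Of the 9 genes, this held for STAT2, MX1 and MX2 in Grain and for IFIH1, IRF7, MX1, MX2, ISG15 and IFI6 in Hay. The courses of MX1, MX2 and ISG15 in Hay thus bent where most genes of the table had their largest step. These shares were computed after the courses had been seen, and the cause of the step was not tested.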
